A study of Mus musculus with 14 samples.

Results

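Chromatin accessibility was examined at 8 genes of the cytotoxic and NK cell program in Treg cells: Gzma, Gzmk, Prf1, Nkg7, Klrd1, Klrk1, Klrb1c and Ncr1. Accessibility had been measured by ATAC-seq, which uses a transposase to tag open chromatin for sequencing, and was given as raw read counts in 240778 windows of 201 bp placed at peak summits. A window was assigned to a gene when that gene's start site was the nearest start site of any protein-coding gene to the window's centre and lay within 100 kb. By this rule 71 of the 240778 windows belonged to the 8 genes. Klrb1c had 18 windows, Gzma 14, Klrd1 14, Prf1 13, Klrk1 6, Nkg7 5 and Ncr1 1, and Gzmk had none. Because 38 of the 71 windows overlapped another, they covered 48 separate regions.

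All mice carried the Foxp3AID allele (Foxp3-AID in the labels), in which Foxp3 is joined to an auxin-inducible degron and expressed with a ZsGreen reporter and Cre, and all received 5-ph-IAA. R26TIR1(F74G) mice (ROSA26-TIR1(F74G)) express from the ROSA26 locus the plant receptor TIR1 once Cre has removed a STOP cassette. With 5-ph-IAA bound, TIR1 directs the Foxp3 fusion to degradation, and the R26WT controls (ROSA26-WT) have no such receptor. Treg cells came from spleen and lymph nodes of 4 R26TIR1(F74G) and 4 R26WT mice on day 3 of treatment and of 3 R26TIR1(F74G) and 3 R26WT mice on day 7. The labels give neither the age of the mice nor the activation state of the cells, and since the study used both resting and activated Treg cells, a library may hold either state or a mixture. The labels also do not name the mice as heterozygous for the Foxp3AID allele. The study describes accessibility in cells of heterozygous mice, whose Treg cells express either that allele or an unmodified one. It states that Treg cells with the unmodified allele are unaffected by treatment and keep immune tone comparable between genotypes. ZsGreen marks the cells that express the Foxp3AID allele. According to the sorting protocol, Treg cells were gated on CD4, TCRβ and ZsGreen, and those of R26TIR1(F74G) mice also on mCherry, so the gate differed between genotypes. The 14 libraries held between 5653289 and 20184487 counts. The shallowest came from R26TIR1(F74G) replicate 1 of day 3 (5653289) and R26WT replicate 3 of day 7 (6348754). Values below are CPM, that is counts scaled for library size and composition, and errors after ± are SDs over mice unless a standard error is named. Since every window has the same length, CPM can be compared between windows.

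Cytotoxic lymphocytes kill by releasing granules onto a target cell. Perforin, encoded by Prf1, forms pores in the target membrane, granzymes such as those encoded by Gzma and Gzmk are the serine proteases delivered through them, and Nkg7 is a membrane protein of the granules that is needed for their release. NK cells and some T cells decide whether to kill through receptors of the C-type lectin family, most of which are encoded side by side in the NK gene complex. Klrd1 encodes CD94, the partner of the NKG2 receptors for non-classical MHC class I, Klrk1 encodes the activating receptor NKG2D, and Klrb1c encodes the NK1.1 antigen of C57BL/6 mice. Ncr1 encodes the natural cytotoxicity receptor NKp46 and lies elsewhere, on chromosome 7. T-box factors, RUNX factors and STAT factors are known regulators of this program in NK and CD8 T cells, and Foxp3 is the lineage factor of Treg cells.

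Start-site sequences are shown for the genes at which windows covered the promoter and, for contrast, for 1 granule gene and 2 receptor genes at which none did. They are the 250 bases before the start in the RefSeq promoter table (GRCm38.p6), 5′ to 3′ on the strand of the gene, in lower case, with capitals for the letters of 6 motifs searched on both strands: TGTGGT (RUNX), GGTGTGA (T-box), AGGAAG (ETS), TTCNNNGAA (STAT), TGTTTAC (forkhead) and TGANTCA (AP-1). At Prf1 the start in that table lies 85 bp inside the RefSeq gene start from which window distances were taken, so only the 165 bases before the gene start are shown. The Prf1 stretch lies at chr10:61297586-61297750 on the plus strand, that of Gzma at chr13:113100982-113101231 on the minus strand and that of Nkg7 at chr7:43436888-43437137 on the plus strand. The Gzmk promoter lies at chr13:113180966-113181215 on the minus strand, that of Klrb1c at chr6:128788642-128788891 on the minus strand and that of Ncr1 at chr7:4337465-4337714 on the plus strand.
Prf1: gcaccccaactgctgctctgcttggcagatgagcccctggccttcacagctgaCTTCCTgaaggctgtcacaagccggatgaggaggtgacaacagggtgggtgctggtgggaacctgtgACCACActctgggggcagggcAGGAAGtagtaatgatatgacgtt
Gzma: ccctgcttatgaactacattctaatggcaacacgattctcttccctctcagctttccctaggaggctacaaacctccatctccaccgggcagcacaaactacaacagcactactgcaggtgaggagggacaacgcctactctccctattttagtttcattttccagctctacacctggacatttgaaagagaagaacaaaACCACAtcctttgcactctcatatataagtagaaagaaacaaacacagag
Nkg7: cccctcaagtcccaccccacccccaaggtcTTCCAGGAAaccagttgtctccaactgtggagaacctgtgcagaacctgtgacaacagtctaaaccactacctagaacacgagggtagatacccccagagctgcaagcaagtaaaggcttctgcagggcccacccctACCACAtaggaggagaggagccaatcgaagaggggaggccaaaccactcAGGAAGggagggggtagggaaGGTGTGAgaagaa
Gzmk: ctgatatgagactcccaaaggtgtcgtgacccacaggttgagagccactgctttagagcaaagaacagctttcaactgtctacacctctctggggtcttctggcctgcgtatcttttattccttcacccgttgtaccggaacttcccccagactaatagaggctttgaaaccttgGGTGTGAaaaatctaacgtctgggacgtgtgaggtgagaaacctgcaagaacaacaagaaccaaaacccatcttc
Klrb1c: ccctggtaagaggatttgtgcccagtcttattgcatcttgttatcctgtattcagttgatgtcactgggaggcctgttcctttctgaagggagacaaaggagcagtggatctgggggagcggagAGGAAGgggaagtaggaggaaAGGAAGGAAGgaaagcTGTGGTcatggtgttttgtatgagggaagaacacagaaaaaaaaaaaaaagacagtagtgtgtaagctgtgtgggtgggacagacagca
Ncr1: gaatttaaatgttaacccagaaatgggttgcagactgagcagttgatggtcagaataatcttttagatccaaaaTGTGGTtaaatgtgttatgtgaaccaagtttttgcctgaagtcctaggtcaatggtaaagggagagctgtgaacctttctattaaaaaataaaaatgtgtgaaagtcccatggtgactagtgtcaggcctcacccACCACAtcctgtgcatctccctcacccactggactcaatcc

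Of the 8 genes, 7 had a promoter in the RefSeq table, and Klrd1 was not among them. The RUNX letters occurred in 6 of the 7 promoters, all but that of Gzmk, and in 12.5% of 17492 protein-coding promoters. The ETS letters occurred in 3 of 7 promoters, those of Prf1, Nkg7 and Klrb1c (28.2% of all promoters), and in Klrb1c 2 of the 3 copies overlap. The T-box letters occurred in 2, those of Gzmk and Nkg7 (3.07%), and the STAT letters in 1, that of Nkg7 (6.69%). Neither the forkhead letters (2.58%) nor the AP-1 letters (6.22%) were found in these 7 stretches. In the accessible Prf1 promoter, the start-site window covered bases 1 to 165 of the sequence, which hold its RUNX match and both of its ETS matches. In Gzma it covered bases 124 to 250, with the RUNX match at base 201, and in Nkg7 bases 98 to 250, with the RUNX, ETS and T-box matches. A match of letters is a description of the sequence and does not show that a factor was bound.

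Few of these genes had accessible start sites in Treg cells. A start-site window was defined as the window nearest to the start, if its centre lay within 1 kb, and was present for Prf1, Gzma and Nkg7, which is 3 of 8 genes (37.5%) against 53.4% of 21441 protein-coding genes. At Prf1 the start-site window (chr10:61297555-61297756, centre 96 bp before the start) had 8.31 ± 0.962 CPM over 14 mice, at percentile 35.4 of all start-site windows. At Gzma (chr13:113100907-113101108, 26 bp before the start and within the overlapping gene Cdc20b) the level was 2.75 ± 0.570 CPM, at percentile 17.2. At Nkg7 (chr7:43436985-43437186, 52 bp before the start) it was 1.04 ± 0.319 CPM, at percentile 3.82. The ranges of Prf1 (6.75 to 10.4 CPM), Gzma (1.69 to 3.70) and Nkg7 (0.522 to 1.66) over the 14 mice did not overlap, so their order held in every library. The median over all start-site windows was 14.8 CPM, above each of them. The nearest window of any kind lay 3620 bp from the start of Klrd1, 9838 bp from that of Klrb1c, 14850 bp from that of Klrk1, 16602 bp from that of Gzmk (a window assigned to Esm1) and 40354 bp from that of Ncr1.

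**Figure D1:**
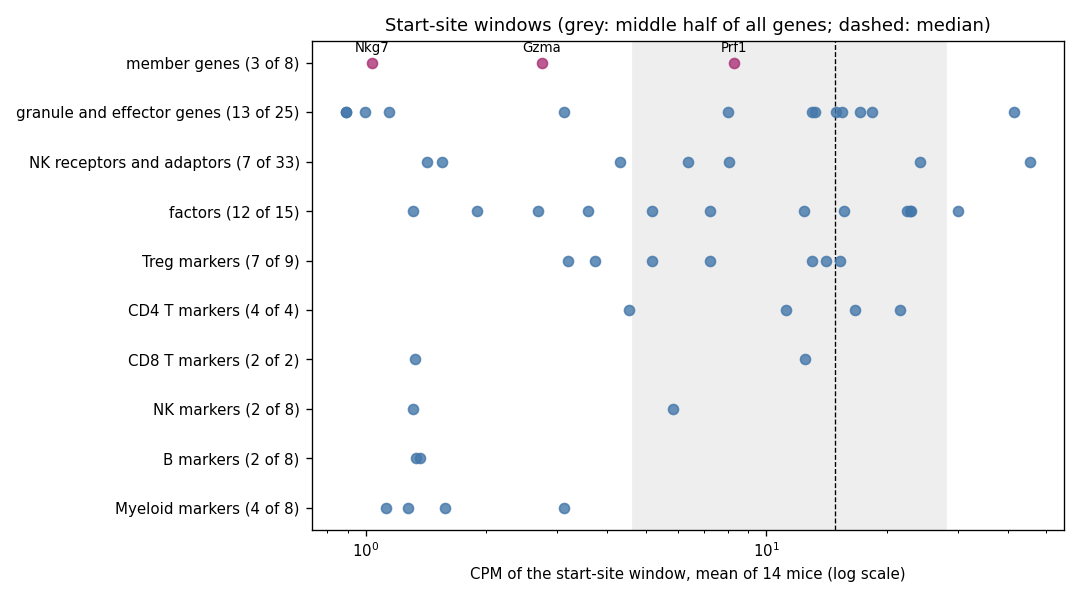
Mean CPM over 14 mice of the start-site window (log scale) for each gene that has one, by gene list, with the number of genes that have one in brackets. Grey marks the middle 50% of all start-site windows and the dashed line their median of 14.8 CPM. Prf1, Gzma and Nkg7 all lie below the median, and Gzma and Nkg7 lie left of the grey band.

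Most markers of the labelled cell type had a start-site window in the same libraries, but not all at a higher level than Prf1 (8.31 CPM). The median over the Treg cell markers with such a window was 7.22 CPM, against 14.8 CPM over all start-site windows. Start-site windows were found for 7 of 9 Treg cell markers (3.20 to 15.3 CPM), all but Foxp3 and Tnfrsf18, and for 4 of 4 CD4 T cell markers (4.55 to 21.5 CPM). Of 8 NK cell markers, 2 of which are also among the 8 genes described here, only Eomes (1.31 CPM) and Itga2 (5.83 CPM) had one. Their sum ranged from 5.67 to 7.87 CPM in R26WT and from 6.44 to 8.09 CPM in R26TIR1(F74G) mice on day 3, and from 6.15 to 7.56 and 6.10 to 9.0 CPM on day 7. Of 8 B cell markers 2 had one (1.34 and 1.36 CPM) and of 8 myeloid markers 4 (1.12 to 3.12 CPM). Cd8b1 (12.5 CPM) and Cd8a (1.33 CPM), the markers of CD8 T cells, both had one. Fewer cells with an open site and less accessibility per cell cannot be told apart in bulk samples.

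Most of the signal near these genes lay around Klrb1c. Over all 14 mice the median level was 19.5 CPM for the 18 Klrb1c windows and 1.23 CPM for the other 53 windows, against 1.80 CPM for all windows of the table. Of the 18, 13 were among the 10% most accessible windows of the table, and of the other 53 none were. The Klrb1c windows held between 73.3% and 79.7% of the summed CPM of the 71 windows in every library. None lay inside Klrb1c. The 8 upstream windows lay 9838 to 18512 bp before its start, 6 of them within the long non-coding RNA gene Gm34755, and the 10 downstream windows lay 21346 to 28918 bp after it, beyond the gene's end and on the side of Klrb1. The most accessible of them (chr6:128803043-128803244, 14502 bp upstream) had 42.3 ± 2.94 CPM, at percentile 99.2 of all windows. Windows assigned to the neighbouring gene Klrb1b reached 39.7 CPM, so such levels were not particular to Klrb1c. Klrb1c and its neighbours are paralogs, so reads that match several copies make these levels less certain than those at unique sequence.

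The other genes had weaker windows. Prf1 had a row of sites besides its start-site window, with 6.94 CPM at chr10:61306299-61306500 (8648 bp downstream, past the end of the gene), 4.29 CPM at chr10:61297188-61297389 (462 bp upstream) and 3.80 CPM at chr10:61336138-61336339 (38488 bp downstream, within Pald1). The 14 Gzma windows lay around its start and in a group about 19802 bp upstream, all within Cdc20b, and spanned 0.777 to 3.17 CPM. Of the 14 Klrd1 windows 13 lay within the neighbouring receptor gene Klre1 and 1 inside Klrd1 (chr6:129591612-129591813, 2.13 CPM), with levels of 0.703 to 2.75 CPM. The 6 Klrk1 windows lay in a cluster between Klrd1 and the 3′ end of Klrk1, 14850 to 16042 bp from its start, with 1.23 to 4.85 CPM. The 5 Nkg7 windows were near its start and at most at 1.04 CPM, and the only Ncr1 window (chr7:4297261-4297462) had 1.57 CPM. Differences at these low levels rest on few reads, since the median member window had a mean count of 22.9 per library.

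**Figure D2:**
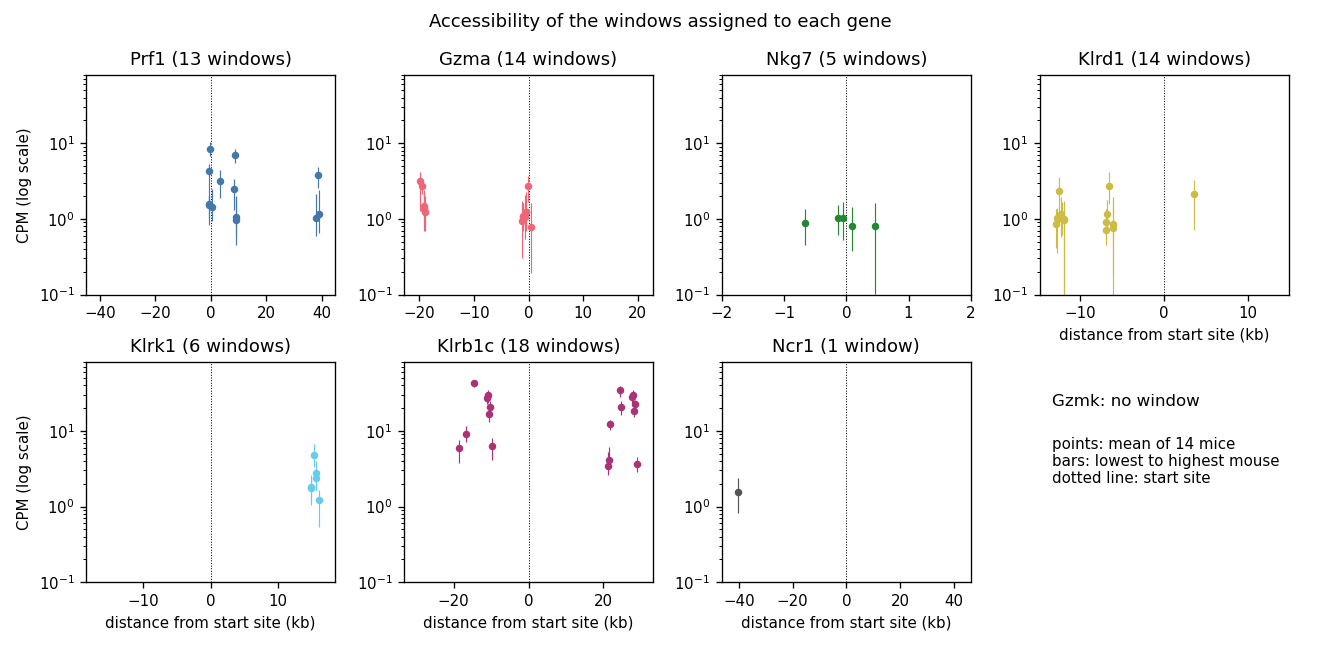
CPM (log scale) of the 71 windows against the distance of their centres from the start site in kb, with positive values downstream, in a panel per gene. Points are means of 14 mice and bars run from the lowest to the highest mouse, and a bar that reaches the lower edge runs to 0. Klrb1c windows reach 42.3 CPM while no window of the other genes exceeds 8.31 CPM.

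The comparison of R26TIR1(F74G) with R26WT mice asks whether loss of Foxp3 protein changes accessibility at these genes. The genotypes also differ in expression of TIR1 and mCherry. All libraries came from treated mice, so an effect of genotype alone cannot be told apart from Foxp3 loss. Each window of the table was tested by edgeR's quasi-likelihood method, and p-values were adjusted over all windows (Benjamini-Hochberg, threshold 0.05). On day 7, 69 of the 71 windows had a mean count of at least 10 and were tested, and none passed (smallest adjusted p = 0.715), where 0.00463% of all 237811 tested windows did. Their median log2 fold change was 0.094 against -0.0066 for all windows, and 45 were higher (65.2%, against 49.0% of all windows) and 24 lower in R26TIR1(F74G) mice. On day 3, 69 windows were tested and none passed (smallest adjusted p = 0.522), and the share of all windows that passed was 0.0%. The median log2 fold change on day 3 was -0.026 against 0.0078 for all windows, with 33 windows higher (47.8%, against 51.2%) and 36 lower. With both days fitted together, all 71 were tested and none passed (smallest adjusted p = 0.616), where 0.0112% of all windows did, and their median log2 fold change was 0.041 against 0.0034, with 44 windows higher (62.0%, against 50.7%).

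At an unadjusted p under 0.05 the shares lay below those of all windows with TMM normalization, all mice and mean counts of at least 10. This did not hold under every alternative. On day 7, 3 of 69 windows, 2 of Klrb1c and 1 of Prf1, reached it (4.35%, against 5.95% of all windows), on day 3 2 of 69, of Klrb1c and Gzma (2.90%, against 7.55%), and over both days 3 of 71, 2 of Klrb1c and 1 of Gzma (4.23%, against 6.73%). Each is described below. With loess offsets, which let the scaling vary with the count, the share on day 7 was above that of all windows (8 of 69, 11.6%, against 6.59%), and so was that over both days without R26WT replicate 3 of day 3 (6 of 71, 8.45%, against 6.27%). DESeq2 called none of the windows in any of these comparisons. The median standard error of a log2 fold change in these windows was 0.207 with all mice, 0.275 with the day 3 mice and 0.296 with the day 7 mice. Over both days the standard error was 0.0785 at the most accessible Klrb1c window and 0.332 at the least accessible Gzma window. A change no larger than the median standard error could not be told from 0 at a window of that precision. Larger ones also failed the threshold, such as -0.51 ± 0.177 (SE, adjusted p = 0.715 by edgeR) at a Klrb1c window on day 7, so they can have been missed too.

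**Figure D3:**
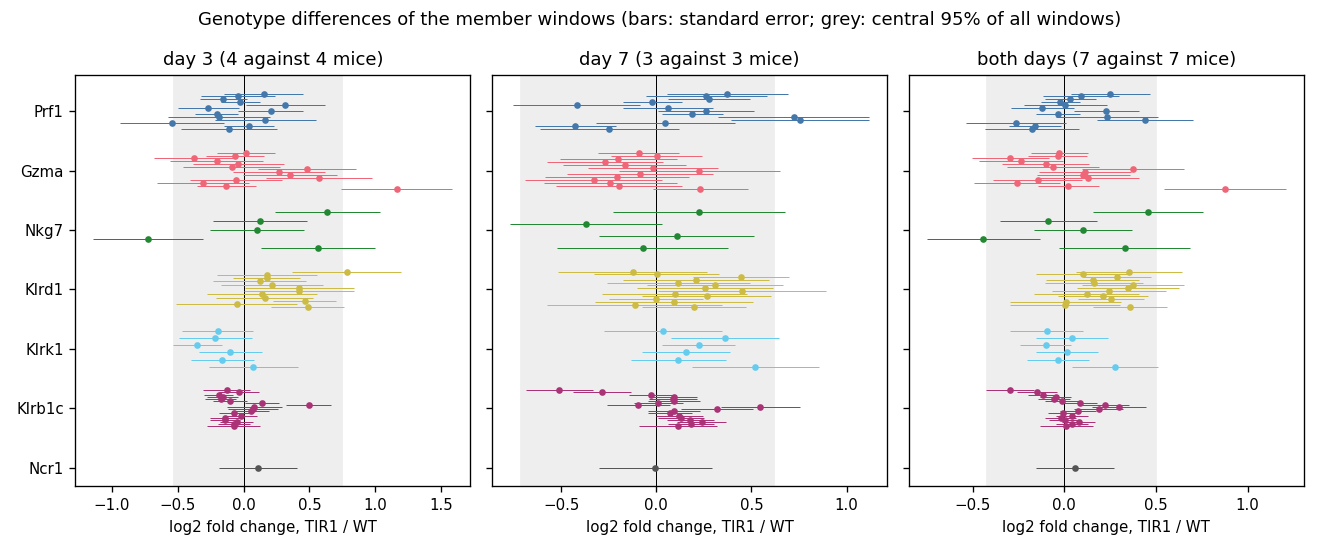
Log2 fold change (R26TIR1(F74G) over R26WT) of each window by gene, for day 3, day 7 and both days together, with standard errors. Grey marks the central 95% of all windows tested. Most windows lie inside it in each comparison, and those outside number 4 for day 3, 2 for day 7 and 2 for both days together.

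Among the granule genes, the Prf1 start-site window had overlapping levels in both genotypes. On day 3 it had 9.78, 8.60, 8.26 and 8.73 CPM in R26WT mice and 10.4, 8.26, 8.42 and 8.21 CPM in R26TIR1(F74G) mice. On day 7 it had 7.62, 8.43 and 6.75 CPM in R26WT mice and 8.29, 7.51 and 7.08 CPM in R26TIR1(F74G) mice. The genotypes overlapped on both days, and the log2 fold change over both days was -0.023 ± 0.106 (SE, adjusted p = 0.988). Means were 8.85 and 8.83 CPM on day 3 and 7.60 and 7.63 CPM on day 7 in R26WT and R26TIR1(F74G) mice, and the log2 difference between days was -0.19 ± 0.107 (SE, adjusted p = 0.931), which did not pass. Among the other Prf1 windows, the one at chr10:61306900-61307101 reached an unadjusted p of 0.0434 on day 7 in this fit, with 0.711, 1.16 and 0.600 CPM in R26WT and 1.93, 1.13 and 1.37 CPM in R26TIR1(F74G) mice, and the groups overlapped. It was picked out after its values were seen, and its adjusted p from edgeR was 0.834.

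The Gzma start-site window also overlapped between genotypes. It had 2.42, 3.70, 3.35 and 2.42 CPM in R26WT and 2.34, 2.15, 2.83 and 3.54 CPM in R26TIR1(F74G) mice on day 3, and 2.52, 1.69 and 3.30 against 2.57, 2.98 and 2.73 CPM on day 7. The groups overlapped on both days, with a log2 fold change over both days of 0.022 ± 0.168 (SE, adjusted p = 0.993). The upstream window with the highest level of Gzma (chr13:113120682-113120883) had 2.86, 3.51, 3.55 and 2.89 CPM in R26WT and 1.26, 3.06, 3.73 and 4.18 CPM in R26TIR1(F74G) mice on day 3. The lowest of these values came from the shallowest library. On day 7 it had 2.97, 3.55 and 3.45 CPM against 3.16, 3.28 and 2.88 CPM, and the log2 fold change over both days was -0.029 ± 0.155 (SE, adjusted p = 0.990).

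The largest fold change of the 71 windows over both days was also at Gzma, in the least accessible of its windows. This window (chr13:113100450-113100651, 430 bp inside the gene) had 0.866, 0.331, 0.615 and 0.413 CPM in R26WT and 1.62, 0.644, 1.27 and 1.61 CPM in R26TIR1(F74G) mice on day 3, and 0.194, 0.814 and 0.450 against 0.588, 0.656 and 0.809 CPM on day 7. The genotypes overlapped on both days. The log2 fold change over both days was 0.88 ± 0.332 (SE, unadjusted p = 0.0108, adjusted p = 0.616 by edgeR), so it did not pass, and on day 3 it was 1.16 ± 0.421 (SE, adjusted p = 0.539). Its mean count was 10.5 reads per library, and on day 7 it was under the minimum count and was not tested.

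Nkg7 had the lowest level of the 3 start-site windows of these genes. Its window had 0.952, 1.46, 1.02 and 0.885 CPM in R26WT and 1.44, 1.66, 0.522 and 1.05 CPM in R26TIR1(F74G) mice on day 3, and 0.840, 0.814 and 1.05 against 1.28, 0.835 and 0.708 CPM on day 7. The groups overlapped, and the log2 fold change over both days was 0.10 ± 0.267 (SE, adjusted p = 0.975). Of the 5 Nkg7 windows, 3 had a positive and 2 a negative log2 fold change over both days, between -0.44 and 0.45. No accessibility of Gzmk could be compared, since it had no window.

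**Figure D4:**
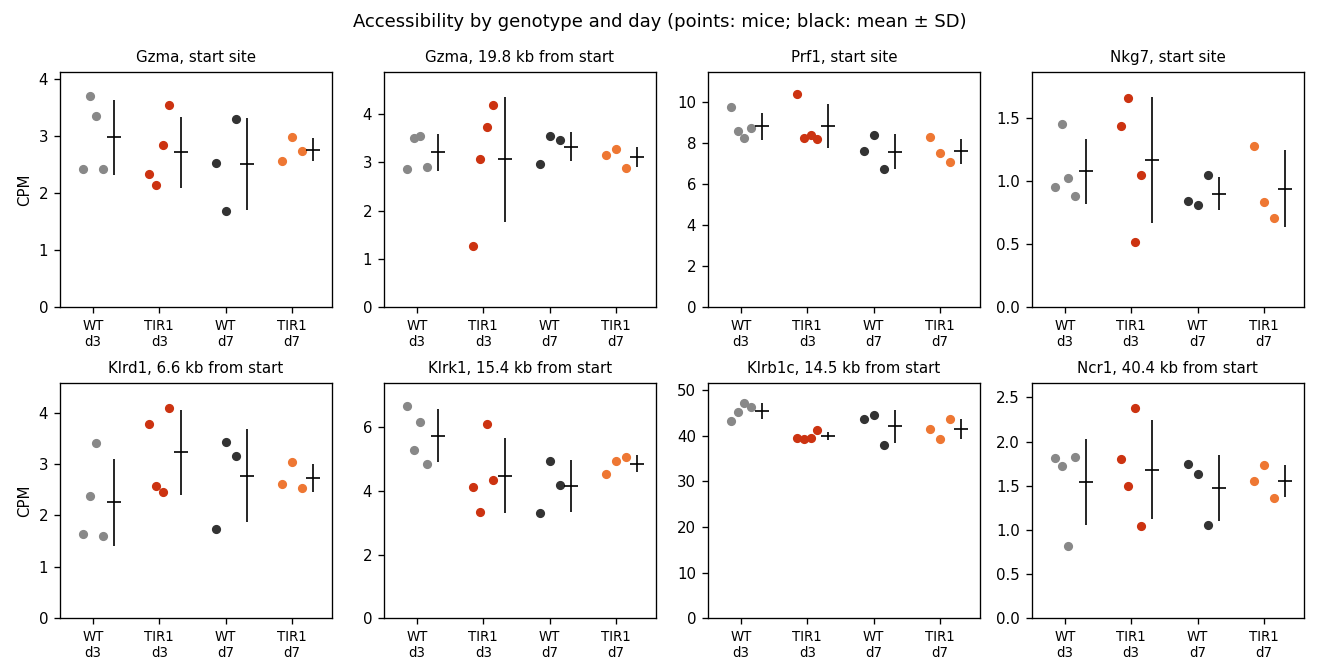
CPM of the start-site window or most accessible window of each gene in every mouse, by genotype and day (WT, R26WT; TIR1, R26TIR1(F74G); d3 and d7, day 3 and day 7). Points are mice and black marks are means with SD. The genotypes overlap in each panel on both days, except for Klrb1c on day 3, where the 4 R26TIR1(F74G) mice (39.3 to 41.3 CPM) lie below the 4 R26WT mice (43.1 to 47.1 CPM).

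Among the receptor genes, the most accessible Klrb1c window had lower values in all 4 R26TIR1(F74G) mice than in any R26WT mouse on day 3 but did not pass the test. It had 43.1, 45.3, 47.1 and 46.4 CPM in R26WT mice and 39.6, 39.3, 39.5 and 41.3 CPM in R26TIR1(F74G) mice on day 3. The day 7 values were 43.7, 44.6 and 37.9 CPM in R26WT mice and 41.4, 39.3 and 43.7 CPM. The groups were apart on day 3 and overlapped on day 7, with log2 fold changes of -0.19 ± 0.108 (SE, adjusted p = 0.714) and -0.028 ± 0.115 (SE, adjusted p = 0.989). It was the only one of the 69 windows whose groups did not overlap on day 3 (1.45%, against 4.1% of all windows). The difference between the days was not past the threshold either (interaction log2 difference 0.16 ± 0.158, SE, adjusted p = 0.909).

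On day 7 the groups did not overlap in 10 of the 69 windows tested (14.5%, against 11.8% of all windows). Of these, 7 were higher in R26TIR1(F74G) mice (10.1%, against 5.81%) and 3 were lower (4.35%, against 6.02%). Klrb1c held 5 of the 7 higher windows, all downstream of its start, and 2 of the 3 lower ones, both upstream. The other higher windows belonged to Prf1 (chr10:61306299-61306500) and Klrd1 (chr6:129575398-129575599) and the other lower one to Prf1 (chr10:61298034-61298235), each with an adjusted p from edgeR of at least 0.873. All 10 downstream Klrb1c windows had a positive log2 fold change on day 7 (0.072 to 0.55, median 0.15), as had 49.0% of all windows, while of the 8 upstream windows 4 were positive and 4 negative (-0.51 to 0.094, median -0.0088). The summed level of the downstream windows was 183.5, 183.8 and 156.8 CPM in R26WT mice on day 7 and 201.1, 185.9 and 201.0 CPM in R26TIR1(F74G) mice, so that the 3 R26TIR1(F74G) mice were highest and the lowest value came from the shallower library. On day 3 the same sum ran the other way in mean, with 174.4, 179.3, 181.6 and 171.8 CPM in R26WT mice and 175.5, 172.3, 153.5 and 173.3 CPM in R26TIR1(F74G) mice, and the groups overlapped. The upstream sums overlapped on both days, with 150.4 to 171.4 CPM in R26WT and 138.3 to 161.9 CPM in R26TIR1(F74G) mice on day 3 and 139.9 to 170.0 against 150.6 to 168.6 CPM on day 7. Overlapping windows share reads, so neighbouring windows are not separate observations.

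**Figure D5:**
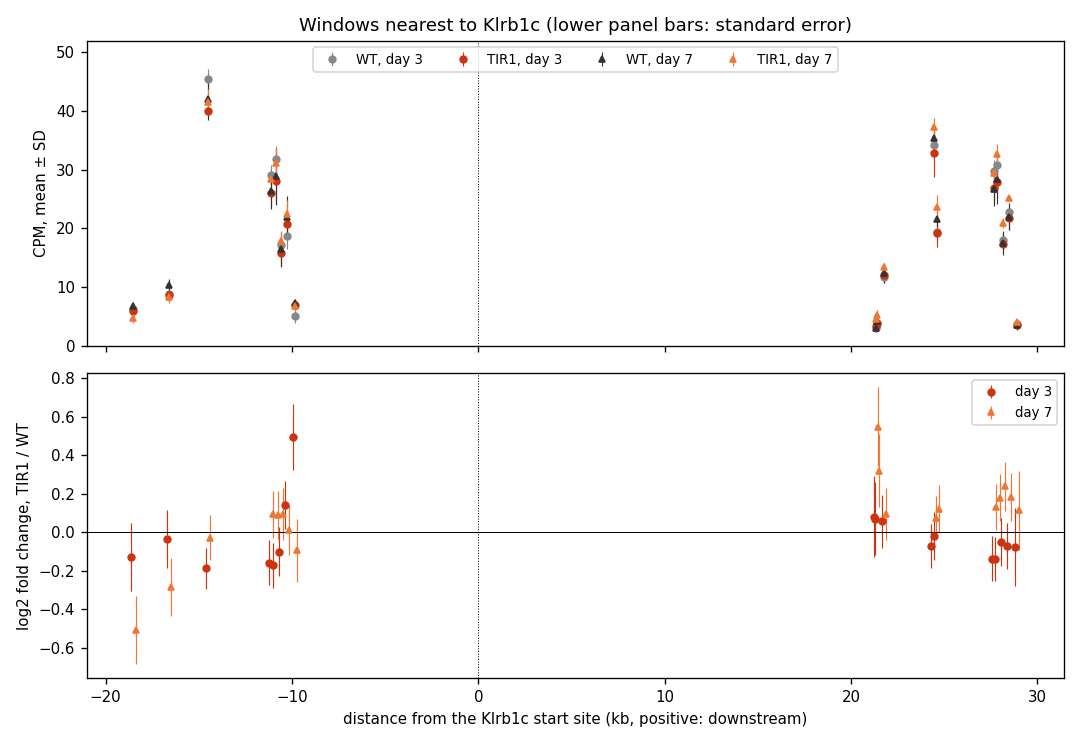
The 18 Klrb1c windows against the distance of their centres from the start site in kb, with positive values downstream. The upper panel gives CPM (mean ± SD) by genotype and day, and the lower panel the log2 fold change of R26TIR1(F74G) over R26WT mice with its standard error (circles, day 3; triangles, day 7). On day 7 the 10 downstream windows lie above 0 and the farthest upstream window lies at -0.51, and none of the 18 passed the test.

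The windows with the smallest p-values on each day were Klrb1c windows at the edges of these groups. On day 7 the farthest upstream window (chr6:128807052-128807253) had 6.53, 7.21 and 6.30 CPM in R26WT and 4.97, 5.54 and 3.74 CPM in R26TIR1(F74G) mice. Its groups did not overlap, and its log2 fold change was -0.51 ± 0.177 (SE, unadjusted p = 0.00612, adjusted p = 0.715 by edgeR). On day 3 the window had 4.68, 6.22, 6.49 and 7.55 CPM against 7.55, 5.15, 4.40 and 6.76 CPM, with overlap and a log2 fold change of -0.13 ± 0.176 (SE, adjusted p = 0.914). The nearest downstream window (chr6:128767195-128767396), named after its values were seen, had 3.17, 2.91 and 3.15 CPM in R26WT and 4.17, 3.87 and 5.31 CPM in R26TIR1(F74G) mice on day 7. Its groups did not overlap, with a log2 fold change of 0.55 ± 0.205 (SE, adjusted p = 0.761).

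On day 3 the smallest p-value belonged to the nearest upstream window of Klrb1c (chr6:128798379-128798580). It had 4.07, 4.56, 6.69 and 4.54 CPM in R26WT and 6.83, 8.10, 5.96 and 7.00 CPM in R26TIR1(F74G) mice, with 1 R26WT mouse inside the range of the R26TIR1(F74G) mice. Its log2 fold change was 0.49 ± 0.172 (SE, unadjusted p = 0.00567, adjusted p = 0.522 by edgeR). The values on day 7 were 6.91, 7.62 and 7.05 CPM against 7.65, 5.48 and 7.08 CPM, which overlapped, with a log2 fold change of -0.095 ± 0.164 (SE, adjusted p = 0.970).

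At Klrd1 every window had a positive fold change over both days without reaching the test's threshold. The log2 fold change was 0.0044 to 0.38 in the 14 windows (median 0.23), where 50.7% of all windows were above 0, and none had an unadjusted p under 0.05. The most accessible window (chr6:129581386-129581587, 6606 bp upstream and within Klre1) had 1.65, 2.38, 3.42 and 1.59 CPM in R26WT and 3.78, 2.58, 2.46 and 4.10 CPM in R26TIR1(F74G) mice on day 3. The day 7 values were 1.74, 3.43 and 3.15 CPM against 2.62, 3.04 and 2.53 CPM. The genotypes overlapped on both days, and the log2 fold change was 0.46 ± 0.241 (SE, adjusted p = 0.676) on day 3 and -0.0031 ± 0.247 (SE, adjusted p = 0.999) on day 7. The sum over the 14 windows was 11.9 to 18.2 CPM in R26WT and 14.4 to 20.6 CPM in R26TIR1(F74G) mice on day 3, and 16.6 to 20.5 against 19.1 to 21.3 CPM on day 7. Most of these windows lie within 1 kb of another, so agreement in sign among them is not a count of independent sites.

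Klrk1 had fold changes of opposite sign on the 2 days, neither of them past the threshold. Its most accessible window (chr6:129608445-129608646) had 6.67, 5.29, 6.15 and 4.84 CPM in R26WT and 4.14, 3.33, 6.11 and 4.34 CPM in R26TIR1(F74G) mice on day 3. By day 7 the values were 3.30, 4.94 and 4.20 CPM against 4.55, 4.95 and 5.06 CPM, and the groups overlapped on both days. The log2 fold change was -0.35 ± 0.185 (SE, adjusted p = 0.683) on day 3 and 0.22 ± 0.192 (SE, adjusted p = 0.919) on day 7. With each mouse left out in turn it ranged from -0.5604 to -0.1843 on day 3 and from 0.0544 to 0.4211 on day 7. The test of the difference between the days gave a log2 difference of 0.57 ± 0.273 (SE, unadjusted p = 0.0399, adjusted p = 0.784 by edgeR). Over the 6 Klrk1 windows, 5 were lower on day 3 and 6 were higher on day 7 in R26TIR1(F74G) mice. Of all windows 51.2% were higher on day 3 and 49.0% on day 7. The 6 windows lie close together and some overlap and share reads, so their signs are not separate observations.

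The Ncr1 window was at a low level throughout. It had 1.82, 1.72, 0.820 and 1.83 CPM in R26WT and 1.80, 1.502, 2.385 and 1.05 CPM in R26TIR1(F74G) mice on day 3, and 1.74, 1.63 and 1.05 against 1.55, 1.73 and 1.37 CPM on day 7. The groups overlapped on both days, and the log2 fold change over both days was 0.060 ± 0.213 (SE, adjusted p = 0.984). Klrd1, Klrk1 and Klrb1c lie 16.52, 16.56 and 15.72 Mb from Gt(ROSA)26Sor on chromosome 6, so genotype and linked sequence that came with the R26 allele cannot be told apart at these 3 genes.

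The genotype difference did not differ detectably between the days at any of the 71 windows. In the test of the interaction none passed (smallest adjusted p = 0.757, where 0.0% of all windows passed), and 2 had an unadjusted p under 0.05 (2.82%, against 6.32% of all windows). These were the most accessible Klrk1 window and the nearest upstream Klrb1c window, with an interaction of -0.59 ± 0.243 (SE, unadjusted p = 0.0183, adjusted p = 0.757). The comparison of day 7 with day 3, with genotype as a term, passed at none of the 71 windows (smallest adjusted p = 0.855, where 0.00332% of all windows passed), and 2, both of Klrb1c, had an unadjusted p under 0.05 (2.82%, against 5.47%). One was at chr6:128767153-128767354 (unadjusted p = 0.0292, adjusted p = 0.889 by edgeR). The smallest p-value was at a downstream Klrb1c window (chr6:128763951-128764152), with 17.7, 20.1, 20.5 and 19.0 CPM in R26WT and 22.1, 19.8, 16.3 and 18.8 CPM in R26TIR1(F74G) mice on day 3. On day 7 it had 23.1, 21.2 and 20.7 CPM in R26WT and 25.1, 21.3 and 24.4 CPM in R26TIR1(F74G) mice, and the days overlapped, with a log2 difference of 0.24 ± 0.0895 (SE, unadjusted p = 0.00960, adjusted p = 0.855). Of the 14 Klrd1 windows 13 were higher on day 7 than on day 3 (median log2 difference 0.29, where 48.8% of all windows were above 0), and of the 5 Nkg7 windows all were lower (median -0.22), with none of them at an unadjusted p under 0.05. Many windows of each of these genes lie close together and some overlap and share reads, so their signs are not separate observations. Day of treatment and any other difference between the days of collection cannot be told apart.

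The wider pathway was followed in lists of genes that act with these 8. Of 25 other granule and effector genes 13 had a start-site window. The highest belonged to Ctsc (41.6 CPM), whose protease activates granzymes. Stxbp2 (18.3 CPM) and Rab27a (13.0 CPM), which act in granule transport and release, and the lysosomal membrane gene Lamp1 (17.2 CPM) were near the median of all start sites. Those of the effector genes Gzmb (0.992 CPM), Ifng (0.890 CPM) and Xcl1 (0.892 CPM) lay at percentiles 3.28, 1.97 and 1.98 of all start sites. None of the 449 windows of this list passed the test in any comparison, and over both days 10 had an unadjusted p under 0.05 with a higher (2.23%, against 3.16% of all windows) and 21 with a lower value in R26TIR1(F74G) mice (4.68%, against 3.57%). The Gzmb start-site window had a log2 fold change of -0.81 ± 0.277 (SE, adjusted p = 0.551), and that of Ctsw, a cathepsin of cytotoxic cells, one of -0.45 ± 0.154 (SE, adjusted p = 0.553), and neither passed.

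Of 33 other NK cell receptor and adaptor genes 7 had a start-site window (21.2%, against 53.4% of all genes). The most accessible were those of Clec2d (45.4 CPM) and Clec2i (24.2 CPM), which encode ligands of the Klrb1 receptor family, and that of Hcst (8.07 CPM), which encodes the adaptor of NKG2D. None of their 316 windows passed in any comparison. Over both days 30 windows had an unadjusted p under 0.05 with a higher value in R26TIR1(F74G) mice (9.49%, against 3.16% of all windows). With a lower value there were 6 (1.90%, against 3.57%). Of the 30 higher windows 16 belonged to the Klra genes, which are described under other observations. Of 15 transcription factor genes known in this program 14 could be matched, Zfp683 not among them, and 12 had a start-site window. Levels were highest at Prdm1 (30.2 CPM), Tox (23.0 CPM) and Runx1 (22.9 CPM), and low at Tbx21 (2.70 CPM) and Eomes (1.31 CPM), the T-box factors of cytotoxic cells. None of their 636 windows passed. The smallest p-value among the start sites over both days was that of Runx3, with a log2 fold change of -0.48 ± 0.100 (SE, adjusted p = 0.0834 by edgeR).

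Across the 14 mice, the accessibility of the Prf1 start site was most like that of the start sites of Greb1 (Pearson's r = 0.896), Slc28a2b (0.833) and Gdf1 (0.830), computed on log2 CPM over all libraries. The median r over 11444 start sites was 0.053. The points share libraries and depth, and the genes lie on chromosomes 12, 2 and 8.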

How the data were processed

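Bulk ATAC-seq of Treg cells from 14 mice was analyzed. Per the labels and the study's methods, the authors aligned reads to mm10 with Bowtie2, called peaks with MACS2, merged the reproducible ones and used featureCounts to count reads at peak summits. What they deposited is raw counts per library, without normalization. Handling of duplicates and of the transposase offset is contained in the counts. The lowest mean count of a window in the table was 10.1.

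Windows were assigned with RefSeq gene starts of GRCm38.p6. Strand was missing for 446 of 21887 protein-coding genes, which were left out, and none of them lay nearer to a window described here. Member genes, lists, motifs and tests were chosen with earlier results of these data known.

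Counts were tested with edgeR 4.0.16 (quasi-likelihood, TMM, a mean of 10 or more counts among the mice compared, Benjamini-Hochberg over all windows) in R 4.3.3, and with DESeq2 1.42.0 as an alternative. Fits used each day alone, both days with day as a term, the interaction, and day with genotype as a term. A standard error is the fold change divided by the square root of its F statistic. CPM used TMM factors over all libraries, and log2 CPM a pseudocount of 0.5. The test was tested on simulated data. Library totals of 5653289 to 20184487 counts set the precision, and counts without molecular identifiers are not independent molecules. Other alternatives were other normalizations, filters, assignment distances and thresholds, replicate block, mouse name prefix, a fit of all libraries and leaving out mice. Named windows were each gene's start-site and most accessible window, and the smallest p of each comparison. Same-numbered mice did not deviate together (correlations of -0.0685 to 0.0666), so numbers were not taken as pairs. Replicates differed by more than counting error (chi-square per degree of freedom 1.63 to 2.46). The count table names a mouse of its own for each library.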

Additional observations from a re-analysis of the deposited data

Results flagged for a closer look

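Of 36 sets of 4 mice on day 3 examined for a value far from the other 3, 4 held one, and chance gives about 1 in 20. The sets share libraries and a gene's sum includes its start-site window, so the 4 are not separate observations. The Prf1 start-site window had 10.4 CPM in replicate 1 of the R26TIR1(F74G) mice, while the other 3 mice of that group had 8.21 to 8.42 CPM. The same mouse, whose library was the shallowest, also stood apart in the summed level of the 13 Prf1 windows (43.7 CPM, against 35.9 to 37.2 CPM in the other 3). The most accessible Klrb1c window had 41.3 CPM in replicate 4 of the R26TIR1(F74G) mice, against 39.3 to 39.6 CPM in the others, and this mouse was still below all 4 R26WT mice. The Ncr1 window had 0.820 CPM in replicate 3 of the R26WT mice, against 1.72 to 1.83 CPM in the other 3. Without replicate 1 of the R26TIR1(F74G) mice or any other mouse, none of the 71 windows passed the test on day 3.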

How the results depend on the processing

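Of the 71 windows, none that was tested passed in any of the 5 comparisons under the alternatives run for it, which were DESeq2, other normalizations, no filter or a mean count of at least 50, the replicate block, the mouse name prefix, an adjusted p under 0.1, other assignment distances and each mouse left out in turn. A fit of all libraries was run for the single days only, and leaving out the 2 shallowest libraries together, chosen after seeing the data, for the 3 comparisons that use both days. With a mean count of at least 50, only 21 to 24 of the windows were tested. With start sites within 10 kb, 31 windows remained in the definition. Over all windows the number called moved more, on day 7 from 11 to between 0 (DESeq2) and 52 (replicate block), over both days from 27 to between 14 (replicate block) and 155 (DESeq2), on day 3 from 0 to at most 4 (replicate block), in the interaction from 0 to at most 1 (replicate block) and between days from 8 to between 5 and 13. Leaving out 1 mouse gave 0 to 27 on day 7, 0 to 29 on day 3, 2 to 56 over both days, 0 to 19 in the interaction and 4 to 22 between days. Replicate numbers do not pair the mice, and the replicate block changed no call among the 71 windows. Loess offsets gave 8 of 69 windows with an unadjusted p under 0.05 on day 7 in place of 3 (11.6%, against 6.59% of all windows). This share exceeded that of all windows under 16 of 101 alternatives, among them a mean count of at least 50 in every comparison (on day 7 4 of 24, 16.7% against 9.42%). The scalings shifted the median log2 fold change of all windows by less than 0.1.

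Signs turned at some named windows, none of them called, and the cause was not tested. With the replicate block, the values were -0.0335 at the upstream Gzma window on day 3, and on day 7 0.0023 at Prf1, 0.0298 at Klrd1 and 0.0525 at Ncr1. With the mouse name prefix they were -0.0633 at the upstream Gzma window on day 3, 0.0349 at Prf1 on day 7 and 0.0059 over both days, and on day 7 0.05 at Klrd1 and 0.0838 at Ncr1. Total counts gave 0.0056 at the upstream Gzma window over both days, 0.0269 at Prf1 on day 3 and 0.0074 over both days, and 0.0028 at Ncr1 on day 7. Loess offsets gave 0.0528 at Prf1 on day 3, 0.0057 over both days and 0.0284 at Ncr1 on day 7. A mean count of at least 50 gave 0.0574 at Prf1 on day 3 and 0.0123 over both days. DESeq2 size factors gave 0.0003 at Klrd1 and DESeq2 0.0182 at Ncr1, both on day 7. Without the 2 shallowest libraries, the values over both days were 0.0670 at the upstream Gzma window and -0.0042 at Ncr1.

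Leaving out each mouse in turn also turned signs at larger values, such as those of the Gzma start site (0.23) and Nkg7 (0.11) on day 7. It gave -0.0253 to 0.3987 on day 7, -0.2909 to 0.0110 on day 3 and -0.0944 to 0.1126 over both days at the Gzma start site. At the upstream Gzma window it gave -0.1289 to 0.1705 on day 3 and -0.1077 to 0.0494 over both days. Prf1 ranged from -0.0838 to 0.0665 on day 7, from -0.0902 to 0.0184 on day 3 and from -0.0569 to 0.0065 over both days. Nkg7 ranged from -0.1844 to 0.2808 on day 7, from -0.2203 to 0.3675 on day 3 and from -0.0611 to 0.2502 over both days. On day 7 the most accessible Klrd1 window ranged from -0.2884 to 0.2747 and that of Klrb1c from -0.0887 to 0.0150. Klrk1 ranged from -0.1984 to 0.0095 over both days. Ncr1 ranged from -0.1259 to 0.1121 on day 7, from -0.1391 to 0.2866 on day 3 and from -0.0725 to 0.1496 over both days. The range of values does not show that the genotypes are alike, since a median window of these genes held 22.9 reads per library.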

Other observations

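The Klra genes, which encode the Ly49 receptors of NK cells, were looked at after the counts of the NK receptor list were seen. They lie 17.0 Mb from Gt(ROSA)26Sor on chromosome 6 (chr6:130029647-130429789), and 7 of 11 genes had 62 windows. Over both days 61 of 62 windows had a higher value in R26TIR1(F74G) mice, against 50.7% of all windows. The median log2 fold change was 0.36, against 0.0034. Of the 62, 16 had an unadjusted p under 0.05, all higher, where 3.16% of all windows did, but none passed after adjustment (smallest adjusted p = 0.455 by edgeR). The windows lie in a gene cluster, come from the same libraries and had at most 2.35 CPM, so agreement in sign is not a count of independent sites. Their summed level on day 3 was 70.0, 62.4, 59.96 and 64.1 CPM in R26WT and 55.9, 82.1, 110.7 and 90.2 CPM in R26TIR1(F74G) mice, so 3 of the 4 R26TIR1(F74G) mice were above every R26WT mouse and the other was lowest of all. On day 7 it was 62.3, 71.5 and 75.3 CPM against 72.2, 89.95 and 79.4 CPM, with overlap. These genes are close paralogs whose reads can be split between copies, and whether linked sequence, read assignment or Foxp3 loss moves with these values was not tested.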
